A study of Mus musculus with 8 samples.

Results

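The insulin-like growth factor (IGF) family was followed here in the lacrimal gland (LG), the main source of the watery part of tears, of mice fed ad libitum (AL) or kept on calorie restriction (CR). The 10 genes, the ligands Igf1 and Igf2, the receptors Igf1r and Igf2r and the binding proteins Igfbp2 to Igfbp7, were taken from the deposited count table by their symbols, out of 24552 genes listed. Both groups were female C57BL/6J mice whose exorbital LGs were collected at 10 to 11 months of age, with 4 libraries in each. CR mice received 40% less food for 4 months, from an age of 6 to 7 months, after a gradual start, while AL mice ate freely. The study describes 2 cohorts on different chows, and in 1 of them the CR chow was enriched in vitamins and micronutrients over the AL chow. Its account of that cohort goes on to a daily meal for CR mice shortly before the dark phase, and does not say whether the other cohort shared it. The labels do not tie a library to a cohort, a cage or a mouse, so the p-values measure the spread between these libraries only. Sequencing read the 3′ ends of polyadenylated transcripts, 75 bases from 1 side.

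IGF1 and IGF2 are secreted peptides related to insulin. Both act through the tyrosine kinase receptor IGF1R, which signals through the insulin receptor substrates to AKT and mTOR and through the Ras and MAP kinase cascade, while IGF2R takes up IGF2 and leads it to lysosomes. Growth hormone drives the synthesis of IGF1 in the liver and many tissues, and a family of binding proteins carries the ligands, prolongs their life in the circulation and holds them away from or near the receptor until proteases release them.

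All 10 genes were counted and each passed edgeR's filter on low counts, among 11211 genes tested. The unit of level, CPM, is counts after scaling the libraries with relative log expression (RLE) factors and setting each to the same total. DEGs are genes with at least a 1.5-fold change and an adjusted p, from the quasi-likelihood F test of edgeR and corrected by Benjamini-Hochberg across the genes tested, under 0.05, and only these are said to be called. The libraries held 12051881 to 22156511 counts, and a floor of 3 counts lay between 0.152 and 0.231 CPM. Reads carried no molecular identifiers, so this floor covers counting error only. LG markers were present in every library: the summed level of 5 acinar markers, among them the water channel Aqp5, was 400 to 435 CPM in AL and 453 to 557 CPM in CR. Of these 5, Sox10 was called higher in CR (4.39-fold, edgeR adjusted p = 0.00746), and of the 4 not called 2 were fitted above AL and 2 below. A list of 6 parotid gland markers, of which Prp2 and Prh1 had 0 counts in at least 1 AL library, summed to 2018 to 25259 CPM in AL and 19843 to 236897 CPM in CR, and 3 of the 6 were called higher in CR.

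The promoters of 3 binding protein genes are shown because Igfbp3, Igfbp5 and Igfbp2 had the largest fitted differences among the binding proteins. Each is the 250 bases before a transcription start in RefSeq on GRCm38.p6, written 5′ to 3′ on the strand of the gene. Capitals mark the motifs found among 7 that were searched on both strands, namely the E-box CACGTG, the D-box TTATGTAA, the cAMP response element TGACGTCA, the FoxO element GTAAACA, the Sp1 site GGGCGG, the TATA box TATAAA and the glucocorticoid response element.
Igfbp3, chr11:7213924-7214173, minus strand: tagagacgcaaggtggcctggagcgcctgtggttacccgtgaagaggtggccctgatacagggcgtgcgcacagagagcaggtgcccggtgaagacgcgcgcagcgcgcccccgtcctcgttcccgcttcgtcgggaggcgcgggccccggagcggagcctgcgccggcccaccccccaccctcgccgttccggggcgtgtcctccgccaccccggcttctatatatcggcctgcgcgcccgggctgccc
Igfbp5, chr1:72874866-72875115, minus strand: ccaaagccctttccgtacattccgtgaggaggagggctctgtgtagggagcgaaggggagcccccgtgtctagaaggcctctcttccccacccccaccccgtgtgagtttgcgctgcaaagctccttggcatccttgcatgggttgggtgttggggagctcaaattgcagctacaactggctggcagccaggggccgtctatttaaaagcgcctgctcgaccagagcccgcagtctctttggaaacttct
Igfbp2, chr1:72824230-72824479, plus strand: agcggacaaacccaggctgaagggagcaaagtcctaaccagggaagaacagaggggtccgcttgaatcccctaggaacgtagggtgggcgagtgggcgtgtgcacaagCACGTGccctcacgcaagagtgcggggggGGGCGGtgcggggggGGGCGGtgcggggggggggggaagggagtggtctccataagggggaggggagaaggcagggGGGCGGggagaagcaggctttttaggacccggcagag
The Igfbp3 and Igfbp5 windows held no exact match to any of the 7 motifs, and near variants of their letters, also of the TATA box, were not searched. The Igfbp2 window held 1 E-box, whose first base lies 142 bases before the start, and 3 Sp1 sites at 113, 98 and 37 bases before it. RefSeq lists another start for Igfbp2, whose window (chr1:72825137-72825386, not shown) held none of the 7. Of all 32851 promoters of this length, 6.02% held the E-box and 32.7% the Sp1 site, with 0.819% for the D-box, 1.55% for the cAMP response element, 3.17% for the FoxO element, 12.4% for the TATA box and 0.00913% for the glucocorticoid element. A match describes the letters and not a bound site.

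Igfbp3 was the only member of the family called, and it was higher in CR. It encodes the main IGF carrier of the circulation. The gene (Gene ID 16009) lies on the minus strand of chromosome 11, from 7206086 to 7213923 on GRCm38. Its level was 0.385, 0.429, 0.146 and 1.27 CPM in AL replicates 1 to 4 and 2.69, 4.20, 3.59 and 3.22 CPM in CR replicates 1 to 4. Each CR library lay above each AL library, and the lowest, AL replicate 3, rested on 2 counts and was under the floor. The mean rose from 0.557 ± 0.490 to 3.43 ± 0.637 CPM (SD, n = 4), which is a fitted log2 fold change of 2.55 (SE 0.54, 95% confidence interval 1.37 to 3.73, edgeR adjusted p = 0.0347) or 5.86-fold. An exact two-sided permutation test of the means gave p = 0.0286, the smallest that 4 against 4 libraries allow.

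Over the family, 1 of 10 genes was called higher and 0 lower, where edgeR called 1.2% of all genes tested higher and 0.785% lower. Without adjustment, 4 of the 10 had p under 0.05, against 16.7% of all genes. These were Igf1r and Igfbp3 on the higher side, against 8.62% of all genes, and Igfbp2 and Igfbp5 on the lower side, against 8.1%. Groups did not overlap for 2 of the 10, against 9.79% of all genes, with 1 gene higher in each CR library (4.58% of all genes) and 1 lower in each (5.2%). The fitted log2 fold change was above 0 in 3 of the 10 and below 0 in 7, and its median was -0.25 over the family and 0.01 over all genes tested.

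**Figure D1:**
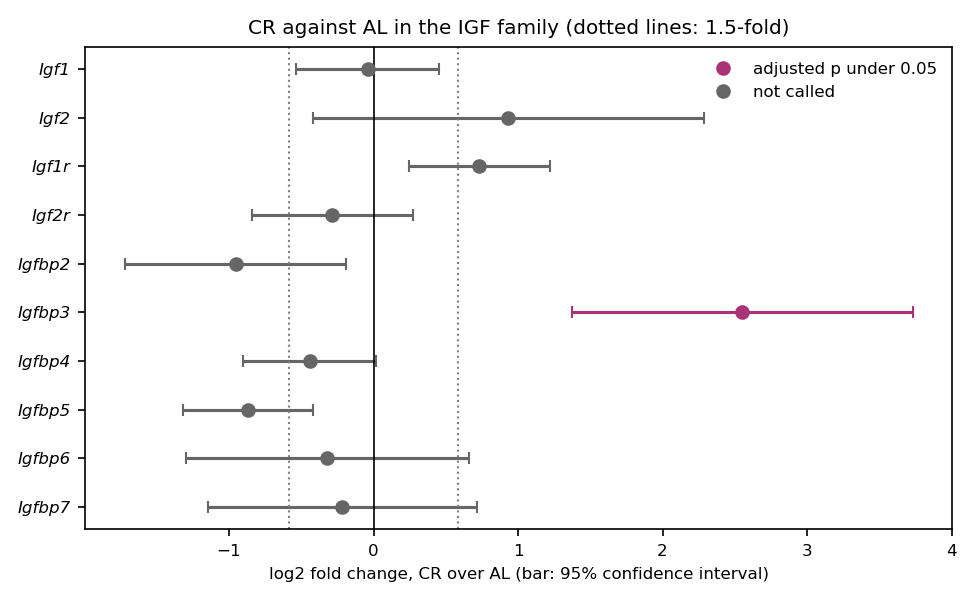
Fitted log2 fold change of CR over AL (horizontal axis) for the 10 IGF family genes, with bars for the 95% confidence interval, dotted lines at 1.5-fold and purple for the gene called. The Igfbp3 interval, 1.37 to 3.73, lies wholly above 0, those of Igf1r, Igfbp2 and Igfbp5 also leave out 0, and the other 6 include it.

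The Igfbp3 call rested on few counts and on most of the libraries. Its counts were 5, 7, 2 and 25 in AL and 38, 71, 58 and 58 in CR. Without AL replicate 4, the AL library with the most counts, the log2 fold change was 3.37 (edgeR adjusted p = 0.0142), and without CR replicate 4 it was 2.58 (adjusted p = 0.0239). Without any one of the other 6 libraries the call was lost, with edgeR adjusted p between 0.0625 and 0.125 and log2 fold changes between 2.25 and 2.66.

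The marker sums of some other cells were higher in CR beside Igfbp3. The summed parotid markers are given above, and with their mean log2 level as a covariate the Igfbp3 log2 fold change was 4.03 (edgeR adjusted p = 0.374, not called). That mean level was 2.95 to 7.93 in AL and 9.93 to 13.5 in CR, without overlap. Here and below, a fit with this covariate therefore cannot tell diet from parotid signal, and a call lost in it decides neither. A list of 7 adipocyte markers summed to 8.09 to 18.0 CPM in AL and 25.5 to 94.7 CPM in CR. Of its 5 genes tested, all had a fitted level above that of AL, Fabp4 alone was called, and Lep, which encodes leptin, was at or under the floor in every library. A list of 7 endothelial markers summed to 13.6 to 17.9 CPM in AL and 19.5 to 22.2 CPM in CR, with 0 of 7 called, 5 fitted above AL and 2 below. Counted against these lists, Igfbp3 had 1.80 to 7.99 counts per 100 adipocyte marker counts in AL and 3.79 to 12.6 in CR, which overlap, and 0.813 to 9.29 counts per 100 endothelial marker counts in AL and 13.8 to 20.3 in CR, which do not. The part of these cells in the Igfbp3 difference was not tested. In RNA of a whole gland, a change in the number of cells of a type and a change in RNA per cell cannot be told apart.

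Igfbp5 was lower in CR in every library and stood just outside the call. It encodes a binding protein that also attaches to the extracellular matrix. The gene (Gene ID 16011) lies on chromosome 1 from 72857932 to 72874884, on the minus strand. Its level was 58.3, 53.5, 61.7 and 64.5 CPM in AL replicates 1 to 4 and 35.4, 34.5, 40.1 and 20.2 CPM in CR replicates 1 to 4. The groups did not overlap, and CR replicate 4 was the lowest. The means were 59.5 ± 4.73 CPM in AL and 32.5 ± 8.62 CPM in CR (SD, n = 4), a fitted log2 fold change of -0.87 (SE 0.21, 95% confidence interval -1.32 to -0.42, edgeR adjusted p = 0.054), and the exact two-sided permutation p was 0.0286, again the smallest possible. Leaving out CR replicate 4 gave -0.70 with an edgeR adjusted p of 0.0243, past the threshold, and without each of the other libraries the adjusted p was 0.0849 to 0.151.

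The marker sums of fibroblasts and of myoepithelial cells, which wrap the acini, had lower ranges in CR that overlapped those of AL. The 10 fibroblast markers summed to 177 to 299 CPM in AL and 146 to 213 CPM in CR, with Col1a1 and Col3a1 called lower and 9 of 10 fitted below AL. The marker fitted above AL, Dcn, had 82.1 to 124 CPM in AL and 102 to 162 CPM in CR and was not called. It was a large part of each sum, so the overlap of the sums cannot be read as that of the other 9 markers. The 6 myoepithelial markers summed to 82.2 to 128 CPM in AL and 46.4 to 85.0 CPM in CR, with 0 of 6 called and all 6 fitted below AL. Igfbp5 had 21.6 to 33.0 counts per 100 fibroblast marker counts in AL and 12.7 to 24.3 in CR, and 48.1 to 70.9 per 100 myoepithelial marker counts in AL and 41.7 to 61.9 in CR, so on both ratios the groups overlapped. Dcn weighs on the fibroblast ratio as well, which therefore does not compare Igfbp5 with the other 9 markers. The part of either cell type in the Igfbp5 values was not tested.

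**Figure D2:**
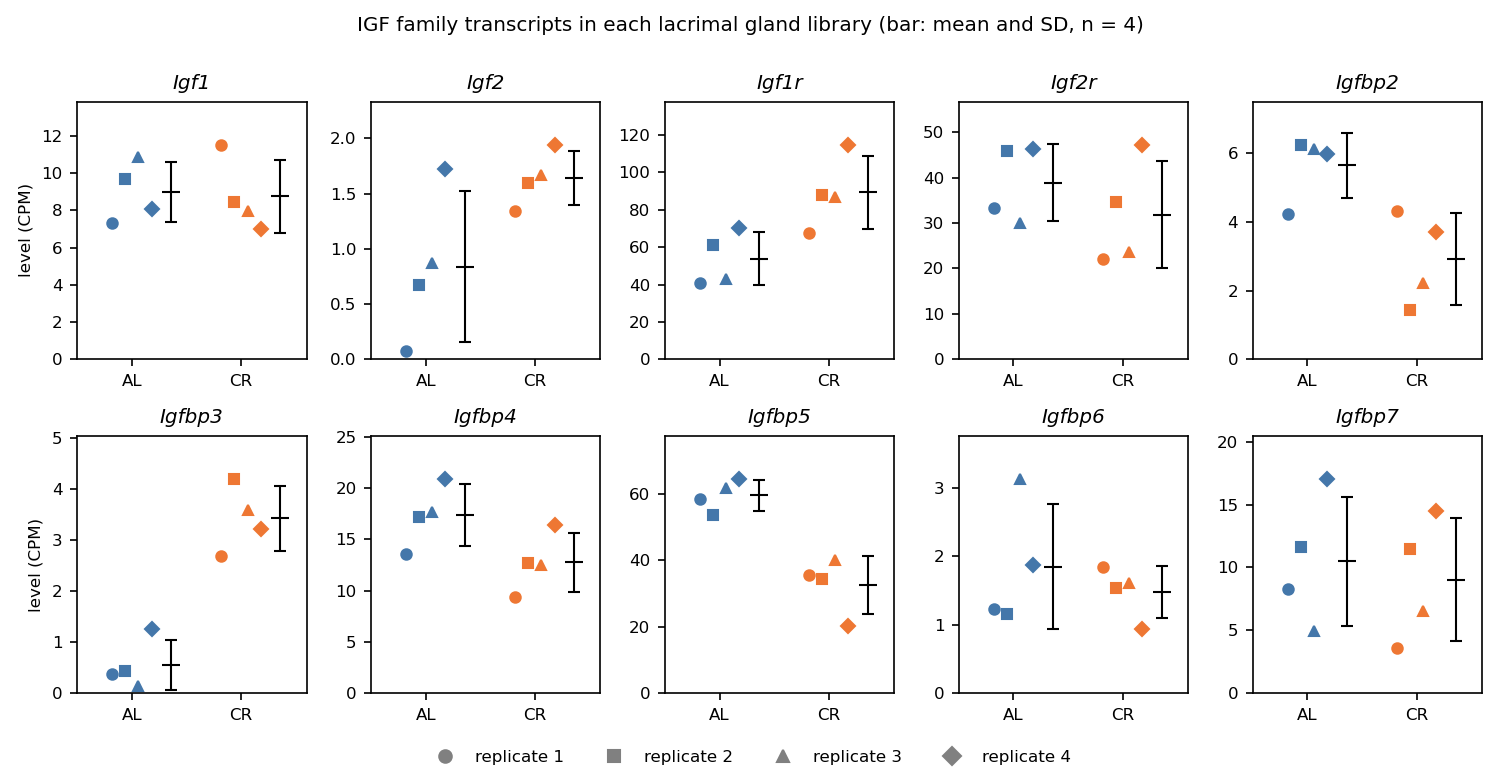
Level in CPM (vertical axis, from 0) of each of the 10 genes in the 4 AL and 4 CR libraries, with a marker shape for each replicate number and bars for the mean and SD (n = 4). The groups are apart for Igfbp3 and Igfbp5 and overlap for the other 8 genes. Of the 4 CR libraries, 3 lay above all AL libraries for Igf1r, and 3 lay below all AL libraries for Igfbp2 and also for Igfbp4.

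Igfbp2, which encodes a binding protein found in serum and many tissues, is the neighbour of Igfbp5. It spans 72824503 to 72852474 on the plus strand of chromosome 1, and 5457 bases separate the facing 3′ ends of the pair. Igfbp2 levels were 4.24, 6.26, 6.12 and 5.99 CPM in AL and 4.32, 1.42, 2.23 and 3.72 CPM in CR. All but CR replicate 1 lay below the AL libraries. The means were 5.65 ± 0.948 and 2.92 ± 1.33 CPM (SD, n = 4), with a log2 fold change of -0.95 (SE 0.35, 95% confidence interval -1.72 to -0.19, edgeR adjusted p = 0.187), which did not pass the test. The interval ran from a small to a more than 1.5-fold decrease, and with the parotid covariate the log2 fold change was -0.24 (adjusted p = 0.945).

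Igfbp4 encodes a binding protein that the protease pregnancy-associated plasma protein A cleaves. Its levels were 13.6, 17.2, 17.7 and 20.9 CPM in AL and 9.41, 12.7, 12.5 and 16.4 CPM in CR. All but CR replicate 4 lay below the AL libraries. The groups overlapped, and the log2 fold change was -0.44 (SE 0.21, 95% confidence interval -0.90 to 0.02, edgeR adjusted p = 0.323). Igfbp6, whose product prefers IGF2 over IGF1, had 1.17 to 3.13 CPM in AL and 0.944 to 1.84 CPM in CR (log2 fold change -0.32, SE 0.45, adjusted p = 0.797). Igfbp7, which encodes a related protein of low affinity for IGFs, had 4.96 to 17.0 CPM in AL and 3.61 to 14.5 CPM in CR (log2 fold change -0.22, SE 0.43, adjusted p = 0.868). None of these 3 genes passed the test, and each of their intervals holds 0 and reaches past a 1.5-fold decrease, those of Igfbp6 and Igfbp7 also past a 1.5-fold increase. Exons of Igfbp7 overlap those of Polr2b on the other strand, and 0.713% of the 75-base windows near the ends of Igfbp4 transcripts also occur in Echs1. The strand setting of the counting is not given in the sources used here, so reads of Igfbp7 and Polr2b may not be told apart. Igfbp1, the remaining classical binding protein, lies 3539 bases from Igfbp3 and had 0 counts in all 8 libraries, which allows a level of up to 0.152 to 0.231 CPM depending on the library.

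Taken as shares of the summed counts of the 6 binding proteins, which need no scaling between libraries but are not corrected for transcript length, Igfbp3 held 0.156 to 1.14% in AL and 4.69 to 6.38% in CR. These ranges did not overlap. Igfbp5 held 57.8 to 67.8% in AL and 34.2 to 61.9% in CR, which overlapped, and the lowest share was that of CR replicate 4. Igfbp2 held 4.92 to 6.94% and 2.16 to 7.53%, Igfbp4 15.8 to 19.1% and 16.4 to 27.8%, and Igfbp7 5.29 to 15.3% and 6.30 to 24.6%. The summed level of the 6 genes was 86.1 to 112 CPM in AL (mean 95.4 ± 11.2, SD, n = 4) and 57.3 to 66.6 CPM in CR (mean 62.2 ± 4.75, SD, n = 4), so the sum was lower in each CR library while the share of Igfbp3 was higher. These shares and sums are given as a description, without a test.

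**Figure D3:**
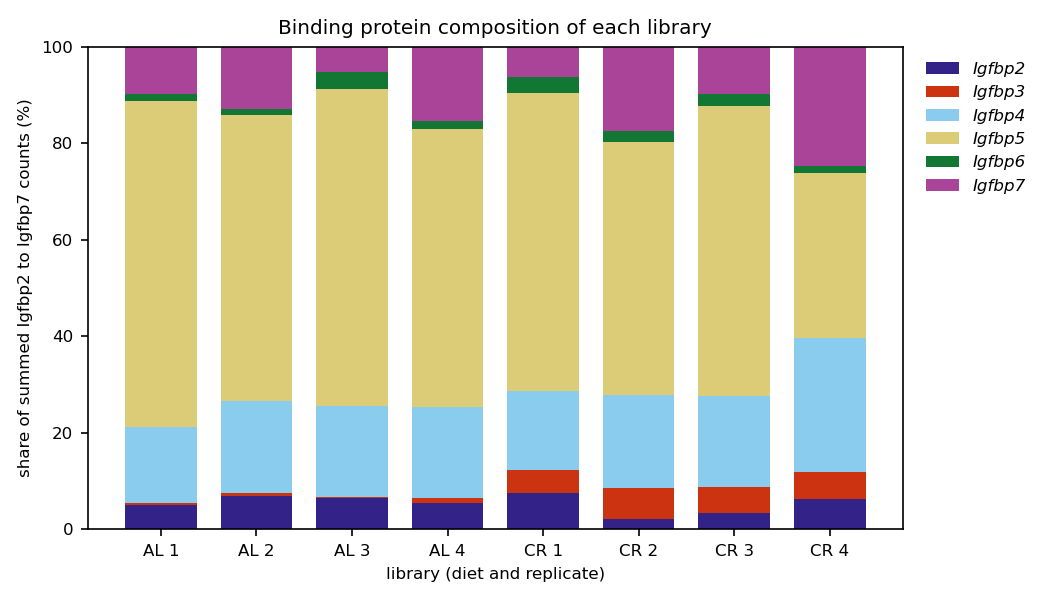
Share of the summed Igfbp2 to Igfbp7 counts (vertical axis, percent) taken by each binding protein in each library (horizontal axis), as stacked bars. The Igfbp3 band is 0.156 to 1.14% in AL and 4.69 to 6.38% in CR, and the Igfbp5 band is smallest in CR replicate 4.

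Igf1r was higher in 3 of 4 CR libraries than in any AL library. The gene (Gene ID 16001) encodes the signalling receptor for both ligands and lies on chromosome 7 from 67952827 to 68233668, on the plus strand. Its level was 40.8, 60.9, 43.1 and 70.2 CPM in AL replicates 1 to 4 and 67.3, 88.0, 87.0 and 115 CPM in CR replicates 1 to 4. CR replicate 1 lay below AL replicate 4, so the groups overlapped. The means were 53.8 ± 14.2 and 89.3 ± 19.6 CPM (SD, n = 4), with a log2 fold change of 0.73 (SE 0.22, 95% confidence interval 0.24 to 1.22). The unadjusted p was 0.00663 and the edgeR adjusted p 0.116, so Igf1r was not called, while DESeq2 called it at the same fold (adjusted p = 0.0453). Adding the parotid covariate gave Igf1r a log2 fold change of 1.60 (adjusted p = 0.347).

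Igf2r, the clearance receptor for IGF2 and carrier of lysosomal enzymes, had 33.2, 45.9, 30.0 and 46.3 CPM in AL and 22.0, 34.6, 23.5 and 47.3 CPM in CR. The highest and the lowest library were both CR. The log2 fold change was -0.29 (SE 0.26, 95% confidence interval -0.84 to 0.27, edgeR adjusted p = 0.645). With the parotid covariate its sign turned, to 0.33, and neither value passed the test.

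Igf1 transcripts did not differ beyond the spread between libraries. The gene (Gene ID 16000) lies on chromosome 10 from 87858265 to 87937042, on the plus strand. Its level was 7.32, 9.69, 10.9 and 8.07 CPM in AL replicates 1 to 4 and 11.5, 8.47, 7.99 and 7.00 CPM in CR replicates 1 to 4, and CR held both the highest and the lowest library. The means were 8.98 ± 1.59 and 8.75 ± 1.95 CPM (SD, n = 4), with a log2 fold change of -0.04 (SE 0.23, edgeR adjusted p = 0.958). The 95% confidence interval, -0.54 to 0.45, leaves out changes of 1.5-fold or more in either direction. The estimate was -0.19 (SE 0.23) without CR replicate 1 and -0.29 (SE 0.51) with the parotid covariate, and neither of these fits leaves out a 1.5-fold decrease.

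Macrophages and fibroblasts are known local sources of IGF1, and the ranges of both marker sums lay lower in CR and overlapped those of AL. The 9 macrophage markers summed to 104 to 274 CPM in AL and 64.1 to 117 CPM in CR, with Lyz2 called lower and 8 of 9 fitted below AL. Igf1 had 3.96 to 7.02 counts per 100 macrophage marker counts in AL and 6.83 to 13.2 in CR, and 2.70 to 4.14 counts per 100 fibroblast marker counts in AL and 3.98 to 7.90 in CR. Both pairs of ranges overlapped narrowly. Dcn, the fibroblast marker fitted above AL, is a large part of the fibroblast counts, so that ratio does not compare Igf1 with the other fibroblast markers. The part of these cells in the Igf1 level was not tested.

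Igf2, a fetal growth factor that is mostly silent in adult mouse tissues, had few counts. Its level was 0.0771, 0.675, 0.875 and 1.73 CPM in AL and 1.34, 1.60, 1.67 and 1.94 CPM in CR, and AL replicate 1 rested on 1 count. The AL range reached into the CR range through AL replicate 4. The log2 fold change was 0.93 (SE 0.62, 95% confidence interval -0.42 to 2.29, edgeR adjusted p = 0.501), which did not pass the test. It was 1.57 without AL replicate 4, 0.58 without AL replicate 1 and 3.38 with the parotid covariate (adjusted p = 0.261, 0.679 and 0.486). Of the 75-base windows in the last 600 bases of Igf2 transcripts, 62.1% also occur in Gm49394, a gene that overlaps it on the same strand, and Igf2os overlaps it on the other strand, so the count of Igf2 is uncertain. Igf1 made up 82.4 to 99.0% of the counts of both ligands in AL and 78.3 to 89.6% in CR, shares that overlapped. The lowest, in CR replicate 4, had an exact 95% binomial confidence interval of 71.1 to 84.4%, which covers counting error only and leaves out the doubt about the Igf2 count.

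The genes whose pattern over the 8 libraries was nearest to that of a family member were found by the root mean square difference of centred log2 CPM values. For Igfbp3 these were the clock gene Per3 (0.370, its own log2 fold change 2.47), the carbonic anhydrase gene Car3 (0.428, log2 fold change 2.83) and the arrestin-domain gene Arrdc2 (0.437, log2 fold change 2.31), and edgeR called each of the 3 higher in CR. For Igf1r they were Kctd5 (0.0461), Midn (0.156) and Cmss1 (0.157), of which none was called. For Igf1 they were Mrpl55 (0.104), the pyruvate kinase gene Pkm (0.106) and Epn3 (0.119), also not called. These distances describe 8 libraries.

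Regulators of the binding proteins and ligands formed a list of 14 genes, of which 5 were tested, 1 was called higher and 1 lower, where edgeR called 1.98% of all genes tested in either direction. The median log2 fold change of the 5 was 0.16. Stc1, which encodes stanniocalcin 1, a secreted inhibitor of pregnancy-associated plasma protein A, rose. It had 1.70, 3.07, 3.79 and 2.38 CPM in AL and 9.69, 7.16, 8.92 and 5.22 CPM in CR, with a log2 fold change of 1.5 (SE 0.31, edgeR adjusted p = 0.0335). Each CR library was above each AL library, and Gm41192 overlaps Stc1 on the other strand.

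Htra1, which encodes a secreted serine protease that cleaves binding proteins and matrix, fell. Its level was 5.47, 7.36, 10.2 and 8.68 CPM in AL and 2.48, 2.84, 3.96 and 2.83 CPM in CR, without overlap, and the log2 fold change was -1.39 (SE 0.28, edgeR adjusted p = 0.0298). Kazald1, a gene of the binding protein superfamily, had a log2 fold change of 0.70 and did not pass the test (adjusted p = 0.579). The 9 genes not tested were Igfbp1, Igfals, Pappa2, Stc2, Igfbpl1, Esm1 and Igf2bp1 to Igf2bp3, and Igfals, which encodes the acid-labile subunit that joins IGFBP3 in serum, had 0 to 7 counts in each library.

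The growth hormone list of 9 genes had 7 tested and 0 called by edgeR, where 1.98% of all genes tested were called. At an unadjusted p under 0.05 there were 2 of the 7, against 16.7% of all genes, and the median log2 fold change was 0.28. Socs2, which growth hormone induces and which restrains its receptor, had 10.1, 15.3, 18.3 and 12.5 CPM in AL and 28.6, 31.9, 41.5 and 15.2 CPM in CR (log2 fold change 1.06, SE 0.29, adjusted p = 0.081). Ghr, the growth hormone receptor gene, had 7.09, 6.69, 6.49 and 7.76 CPM in AL and 14.3, 17.0, 12.8 and 7.00 CPM in CR (log2 fold change 0.86, SE 0.26, adjusted p = 0.112). In both genes 3 of the 4 CR libraries were above all AL libraries and CR replicate 4 was within the AL range. Socs2 was called in 5 of 18 alternatives (log2 fold changes 0.84 to 1.28) and Ghr in 2 of 18 (0.35 to 1.07), in both genes with DESeq2 and without CR replicate 4 among them. The other 7 fits that left out 1 library called neither, with edgeR adjusted p of 0.105 to 0.212 for Socs2 and 0.138 to 0.295 for Ghr. The parotid covariate gave the lowest values, 0.84 for Socs2 (adjusted p = 0.697) and 0.35 for Ghr (adjusted p = 0.866). Ptpn1, a phosphatase gene of this axis, had a log2 fold change of 0.43 (adjusted p = 0.311).

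Of 32 genes of signalling below IGF1R, 30 were tested, 1 was called higher and 0 lower (1.2% and 0.785% of all genes), and the median log2 fold change was -0.04. The gene called was Eif4ebp1, which encodes 4E-BP1, a repressor of cap-dependent translation that mTOR inactivates. Its level rose from 51.6, 61.2, 54.1 and 73.1 CPM in AL to 85.6, 151, 143 and 108 CPM in CR, without overlap, at a log2 fold change of 1.02 (SE 0.21, edgeR adjusted p = 0.0335). Rps6kb1, which encodes the ribosomal protein S6 kinase, had a log2 fold change of 0.50 (adjusted p = 0.131) and Sos1, a Ras exchange factor gene, one of -0.49 (adjusted p = 0.141). At an unadjusted p under 0.05 there were 6 of the 30, against 16.7% of all genes, with 5 higher (8.62% of all genes) and 1 lower (8.1%).

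Because Igf2 and Igf2r are imprinted in mice, 15 imprinted growth genes were listed, of which 12 were tested and 0 called by edgeR, against 1.98% of all genes tested. At an unadjusted p under 0.05 there were 4 of the 12, against 16.7% of all genes, and the median log2 fold change was 0.14. Slc22a3, an organic cation transporter gene beside Igf2r, had 0.385, 0.491, 0 and 0.254 CPM in AL and 1.49, 4.09, 2.72 and 1.17 CPM in CR. All CR libraries were above all AL libraries, and the log2 fold change of 3.02 (SE 0.72) had an edgeR adjusted p of 0.0532, just outside the call. Slc22a3 was called in 4 of 17 alternatives, with log2 fold changes from 1.84, with the parotid covariate (adjusted p = 0.712), to 3.42. Its exons overlap those of Plg on the other strand, so its count carries the same doubt as that of Igfbp7. Gnas, which encodes the stimulatory G protein subunit, had a log2 fold change of 0.77 (adjusted p = 0.1) and Peg3, a zinc finger gene, one of 1.46 (adjusted p = 0.252). Gnas was called in 5 of 18 alternatives, with log2 fold changes from 0.67 to 1.45.

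**Figure D4:**
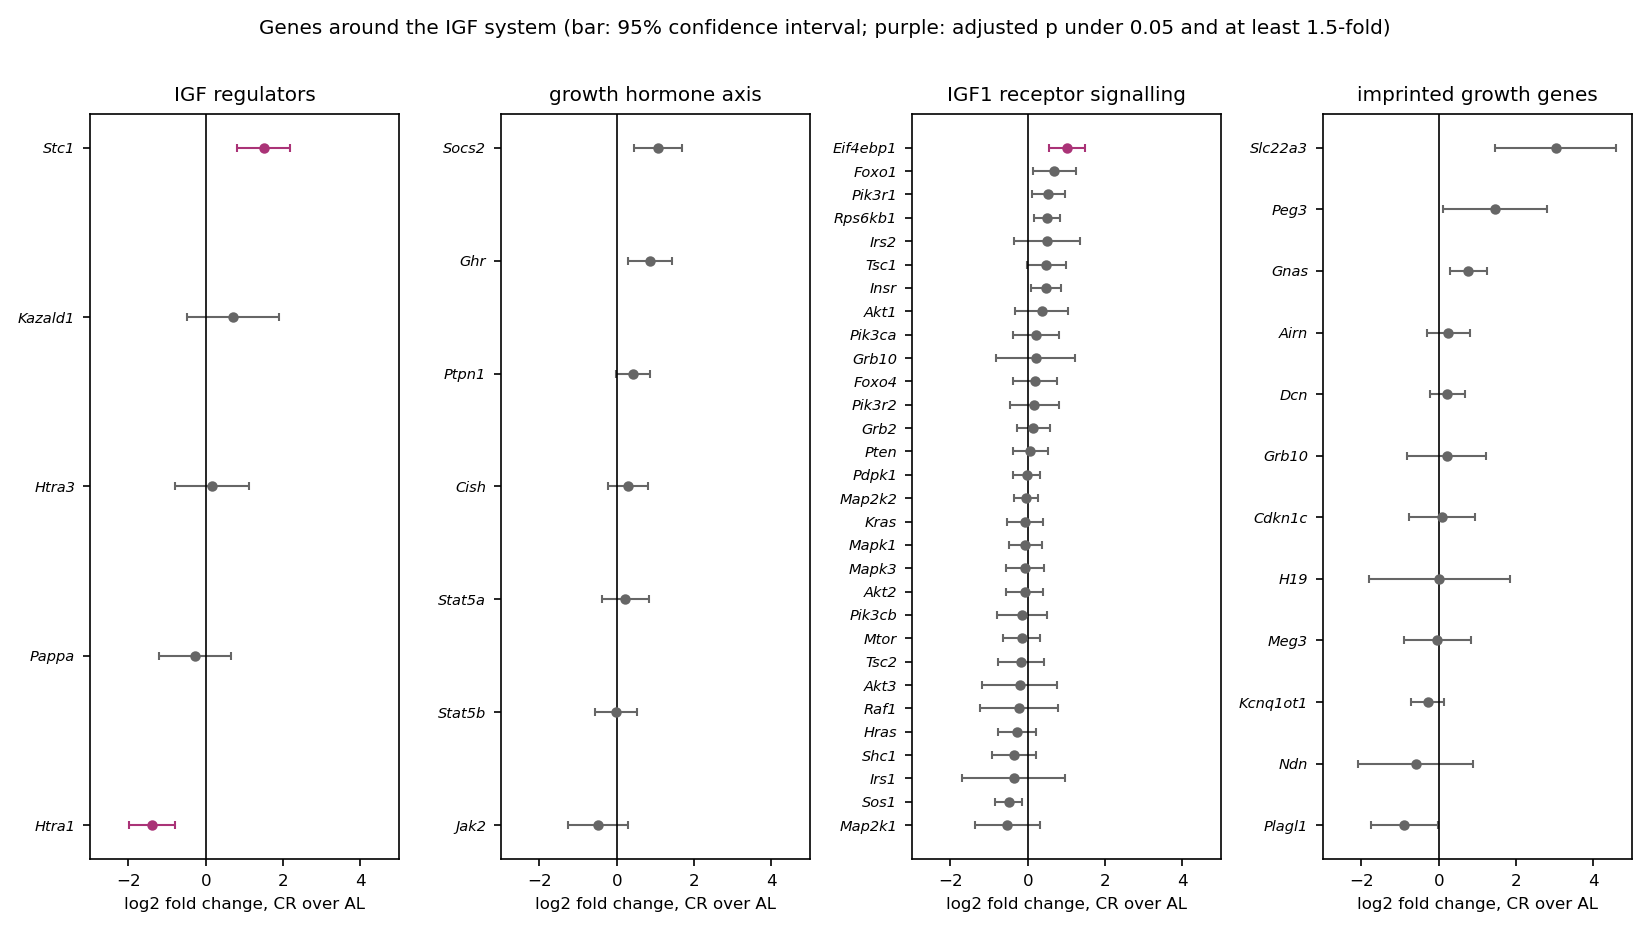
Fitted log2 fold change of CR over AL (horizontal axis) for the tested genes of the 4 lists, with bars for the 95% confidence interval and purple for genes called. Of these genes Stc1 and Eif4ebp1 were called higher and Htra1 lower, and Slc22a3 has the highest value, 3.02.

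The 3 calls in these lists were also lost in most fits that left out 1 library, and most of those fits called fewer genes in all. Over all 18 alternatives the log2 fold changes kept their direction, from 1.34 to 1.69 for Stc1, -1.54 to -0.87 for Htra1 and 0.91 to 1.29 for Eif4ebp1. Among the 8 fits that each left out 1 library, edgeR called Stc1 without AL replicate 3 and without CR replicate 4, Htra1 without AL replicate 1 and without CR replicate 4, and Eif4ebp1 in the fits that lacked AL replicate 4, CR replicate 1 and CR replicate 4. With the parotid markers as a covariate none of the 3 was called, with log2 fold changes of 1.39, -0.87 and 1.29, and at an unadjusted p under 0.05 this fit counted 1057 genes.

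**Figure D5:**
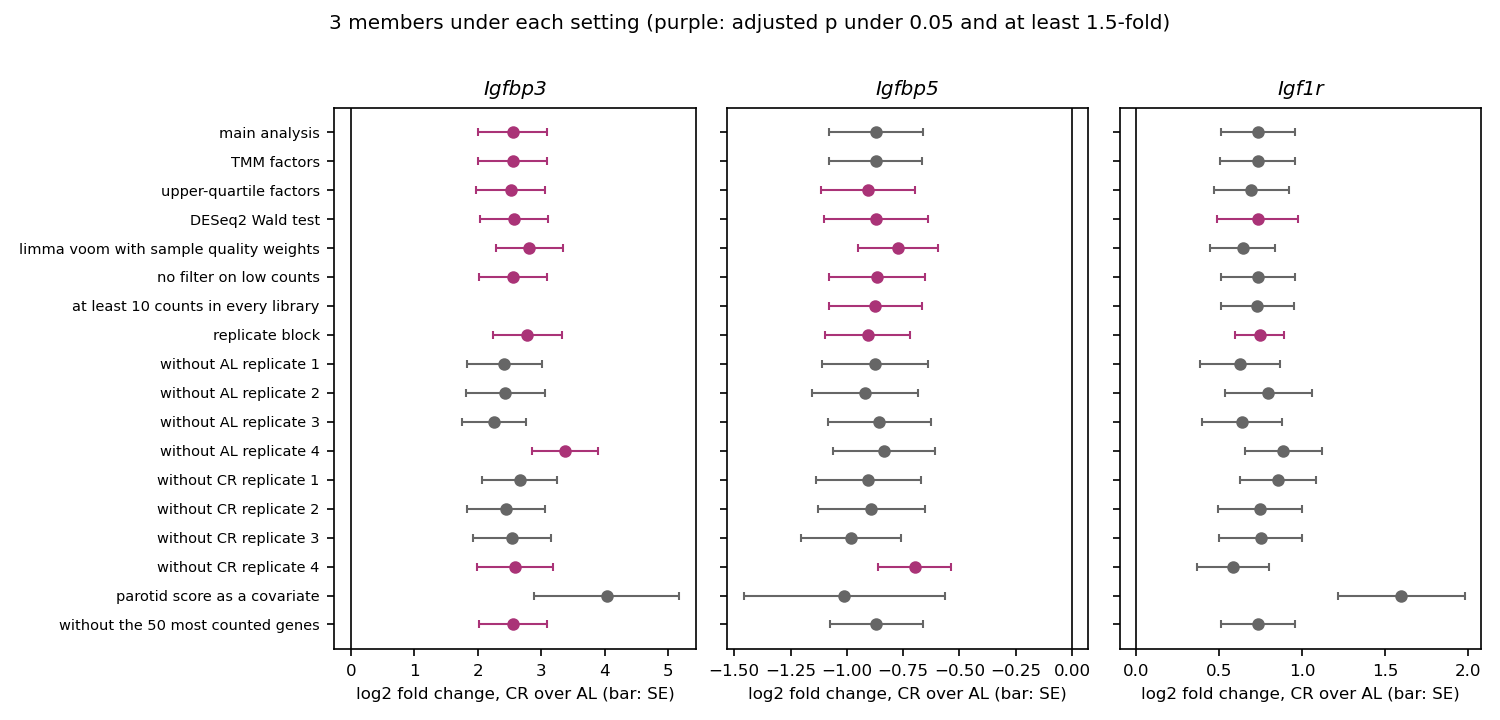
Fitted log2 fold change of CR over AL (horizontal axis) with its SE for Igfbp3, Igfbp5 and Igf1r under the settings (vertical axis), with purple for settings under which the gene was called. The setting without a fold threshold reuses the main fit and is not drawn. Counting it, Igfbp3 was called in 10 of 17 alternatives, Igfbp5 in 7 of 18 and Igf1r in 2 of 18. No alternative turned the sign of any of the 3.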

How the data were processed

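RNA of 8 LGs, 4 AL and 4 CR by the diet on their labels, was sequenced with the QuantSeq 3′ FWD kit. Reads were trimmed (cutadapt), mapped to mm10 (STAR) and summed per gene (HTSeq) by the authors, and the deposited table holds the raw counts. Tool versions, the annotation and the strand setting are not given in the sources used here. The authors also deposited log2 values, made from the counts with RLE factors (largest difference when recomputed, 0.000124), which were not used further. No column of the table was left without a sample.

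Of 24557 rows, 5 repeated symbols were dropped, and 483 rows had no Gene ID. Differences between CR and AL were fitted with edgeR 4.0.16 (R 4.3.3) after RLE scaling and filterByExpr, and its quasi-likelihood p-values were adjusted by Benjamini-Hochberg over 11211 genes. Dividing a log2 fold change by the root of its F statistic gave its SE, and the biological coefficient of variation was 34.7%. The thresholds follow the study. The pipeline was tested on simulated data.

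The IGF genes, gene lists and marker lists were chosen with earlier results of these data known. Every IGF gene is named. Of each pathway list the genes called are named, and where fewer than 3 were called also those with the smallest p up to 3 genes. The 3 nearest genes of Igf1, Igf1r and each IGF gene called are named, from log2 CPM values with 2 added to each count before scaling. Fabp4, Lep, Col1a1, Col3a1, Dcn, Lyz2, Aqp5, Sox10, Prp2, Prh1, Igfals and Igfbp1 were singled out after their values were seen. Of the 10 genes, all matched a RefSeq promoter (14 sequences). Positions come from GENCODE vM21 on GRCm38.

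Alternatives were scaling by TMM or by the upper quartile, testing with DESeq2 1.42.0 or with voom and quality weights in limma 3.58.1, dropping the low-count filter or raising it to 10 counts in all libraries, dropping the fold threshold, blocking on the replicate number, omitting single libraries, a parotid covariate, and removing the 50 most counted genes.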

Additional observations from a re-analysis of the deposited data

Results flagged for a closer look

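Igfbp2 in AL replicate 1 stood apart from the rest of its group, at 4.24 CPM against 5.99 to 6.26 CPM in the other 3 AL libraries, and lay within the CR range. The gap to the nearest library was 0.867 of the range of the group, above Dixon's critical value for 4 samples. Of 20 groups checked (10 genes in 2 diets) this was the only one past that limit, and chance flags about 1 in 20. Without this library the edgeR log2 fold change of Igfbp2 was -1.06 (adjusted p = 0.214), not past the test.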

How the results depend on the processing

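The 134 genes called higher and 88 called lower, the 1 IGF gene called and the 3 pathway genes called became 385, 317, 3 and 7 with DESeq2, 237, 160, 2 and 5 with voom, 271, 165, 2 and 5 without a filter on low counts, and 388, 312, 3 and 6 with the replicate block. Upper-quartile factors called 2 IGF genes. With the parotid score as a covariate all 4 counts were 0 (at an unadjusted p under 0.05, 1057 genes, 4 IGF genes and 5 pathway genes). The score did not overlap between the diets, so this fit cannot tell diet from parotid signal. Leaving out 1 library at a time gave 35 to 453 genes higher, 25 to 247 lower, 0 to 2 IGF genes and 0 to 8 pathway genes, with the most genes without CR replicate 4 and the fewest called higher without AL replicate 2 and lower without CR replicate 2.

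Igfbp3 kept its direction in all 17 alternatives and was not tested at 10 counts in every library. Igfbp5 passed the threshold with upper-quartile factors (edgeR adjusted p = 0.0495), DESeq2 (0.00623), voom (0.0333), no filter (0.0313), 10 counts in every library (0.0498), the replicate block (0.0152) and without CR replicate 4 (0.0243), and its adjusted p over all 18 alternatives ran from 0.00623 to 0.522. Igf1r passed with DESeq2 (adjusted p = 0.0453) and with the block. Signs turned, with no value passing the test, for 3 weak differences when single libraries were left out: Igf1 ranged from -0.19 to 0.058 (above 0 without AL replicate 3, without CR replicate 3, at 0.01, and without CR replicate 4, at 0.05), Igfbp6 from -0.49 to 0.044 (above 0 without AL replicate 3) and Igfbp7 from -0.54 to 0.12 (above 0 without AL replicate 4 and, at 0.05, without CR replicate 1). Voom turned Igfbp6, to 0.016, and the parotid covariate turned Igf2r (0.33), Igfbp4 (0.23) and Igfbp7 (0.93). The cause was not tested. TMM factors, no fold threshold and removal of the 50 most counted genes changed no call among the IGF genes.

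Deviations from the group means of libraries that share a replicate number correlated at 0.15, 0.0782, 0.248 and 0.463, and 5 of 8 libraries correlated best with their own number, a hint of pairing from the data and not from the design. Because 0.0782 was too low for every pair to count as linked and the labels name nothing that a number shares, the libraries were not paired, which leaves pairing undecided. With that number as a block the log2 fold change was 2.78 for Igfbp3, -0.91 for Igfbp5 and 0.74 for Igf1r (edgeR adjusted p = 0.0109), so the block added the calls of Igfbp5 and Igf1r, and it also called Socs2 (0.0109), Slc22a3 (0.028) and Gnas (0.0472). Depth limits Igfbp3, Igf2 and Igfbp6, which had 1 to 71 counts in each library.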
